A study of Caenorhabditis elegans with 32 samples.

Results

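The ribosomal protein genes of Caenorhabditis elegans were examined as templates of 22G RNA. They were taken as the protein-coding genes of the WBcel235 annotation named rpl- (large subunit) or rps- (small subunit), with no use of their values. The rule found 78 genes, 47 rpl- and 31 rps-, among the 46932 genes of the deposited table of 22G counts, of which 19981 were protein-coding. Small RNA was sequenced from whole worms labelled hrde-1 (a mutant of the nuclear Argonaute HRDE-1) or WT, each labelled hypoxia or normoxia, in the generations P0, F1, F2 and F3. Each of the 16 groups held 2 libraries, 32 in all. The allele of hrde-1, the sex and the age at harvest were not given. Per the labels' protocol, exposure meant 16 h in a chamber with 0.1% oxygen, at 20 °C and from the L4 larval stage, with recovery in air. Which generations this covered is not stated, and the F1 to F3 worms labelled hypoxia were read as descendants of exposed P0 worms. Separate cultures are not stated for the 2 libraries of a group, so the p-values measure the spread between these libraries, which may be technical. Comparisons that pool generations count the libraries of each generation as separate. If successive generations came from the same lines, a difference between lines would recur in each generation.

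22G RNAs are antisense small RNAs that RNA-dependent RNA polymerases copy from target transcripts. Argonautes load them. CSR-1 carries those against most genes expressed in the germline, and HRDE-1 carries others into germline nuclei, where silencing can be passed to offspring. Ribosomal protein genes encode the protein part of the cytoplasmic ribosome and are among the most highly transcribed genes of any cell, and the nucleolus, where ribosomes are built, is known to respond to stress. In whole worms, fewer cells that make a small RNA and less small RNA per cell cannot be told apart.

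The 22G libraries held 438436 to 2578060 counts on genes, and the ribosomal protein genes took 564 to 4740 of these, or 0.0800% to 0.227% of a library. Levels are given below as CPM, counts per 1000000 with library sizes scaled by the trimmed mean of M values (TMM). Groups that stood apart were F3 hrde-1 normoxia and P0 WT normoxia. In the F3 hrde-1 normoxia libraries 50 and 41 of the 78 genes had a count, against 62 to 73 in the other 30 libraries. Brought to 400000 counts, those libraries would show 46.0 and 38.3 of the genes of the 78, against 59.8 to 68.8 in the others. In the P0 WT normoxia libraries, 22G counts were 9.27% and 6.15% of the 4 deposited small RNA classes together, against 14.9% to 45.9% elsewhere. The label hrde-1 is not checked by 22G counts.

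Ribosomal protein genes carried more 22G RNA than most protein-coding genes, at a moderate level. Their median was 14.1 CPM over the 32 libraries, against 1.16 CPM for the other protein-coding genes, and 70.5% of them reached 10 CPM, against 30.1% of the others. Per kilobase of exon the medians were 26.2 and 0.922 CPM, and the ribosomal protein genes were short, with a median of 532 exonic bases against 1164. Large-subunit genes (median 14.4 CPM) and small-subunit genes (13.6 CPM) lay close together. rpl-29, rpl-36, rpl-41.2 and rpl-25.1 had no count in any library. Above 0, the lowest were rpl-15 at 0.849 CPM, rps-0 at 0.600, rpl-17 at 0.332, rps-4 at 0.252 and rpl-16 at 0.175 CPM. rps-0 is the homolog of the mammalian laminin receptor precursor RPSA. The 10 highest by mean CPM were rpl-11.2 (77.6), rpl-11.1 (58.7), rpl-42 (50.8), rpl-34 (47.9), rps-14 (44.1), rpl-3 (40.6), rpl-43 (40.6), rpl-10 (37.5), rps-2 (36.7) and rpl-20 (36.6). Per kilobase the order changed: rpl-43 led at 147 CPM per kb, followed by rpl-34 at 130, rps-28 at 129 and rpl-11.2 at 106 CPM per kb.

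Ribosomal protein genes often sit beside other small RNA sources, so the annotation was checked. Of the 78 genes, 13 held a snoRNA gene within their span and had a median of 13.1 CPM, against 14.1 CPM for the 65 without. The exons of 14 genes overlapped another gene, with a highest share of 18.7% of exonic bases in rps-20, which overlaps the miRNA gene cel-mir-354. The other gene lay on the opposite strand for 9 of the 14 and on the same strand, as for rps-20, for 5. Counts in such shared bases cannot be assigned here. On the same strand, strand does not separate the genes. For the opposite strand, the strand setting of the authors' counting is not given in the sources used here. rpl-7A, described below, shares 7.82% of its exonic bases with the non-coding RNA gene Y24D9A.11 on the opposite strand. rpl-11.2 overlaps no other annotated gene. The genes were spread over all chromosomes, 23 on I, 10 on II, 18 on III, 17 on IV, 8 on V and 2 on X, the last being rpl-11.2 and rpl-25.1.

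**Figure D1:**
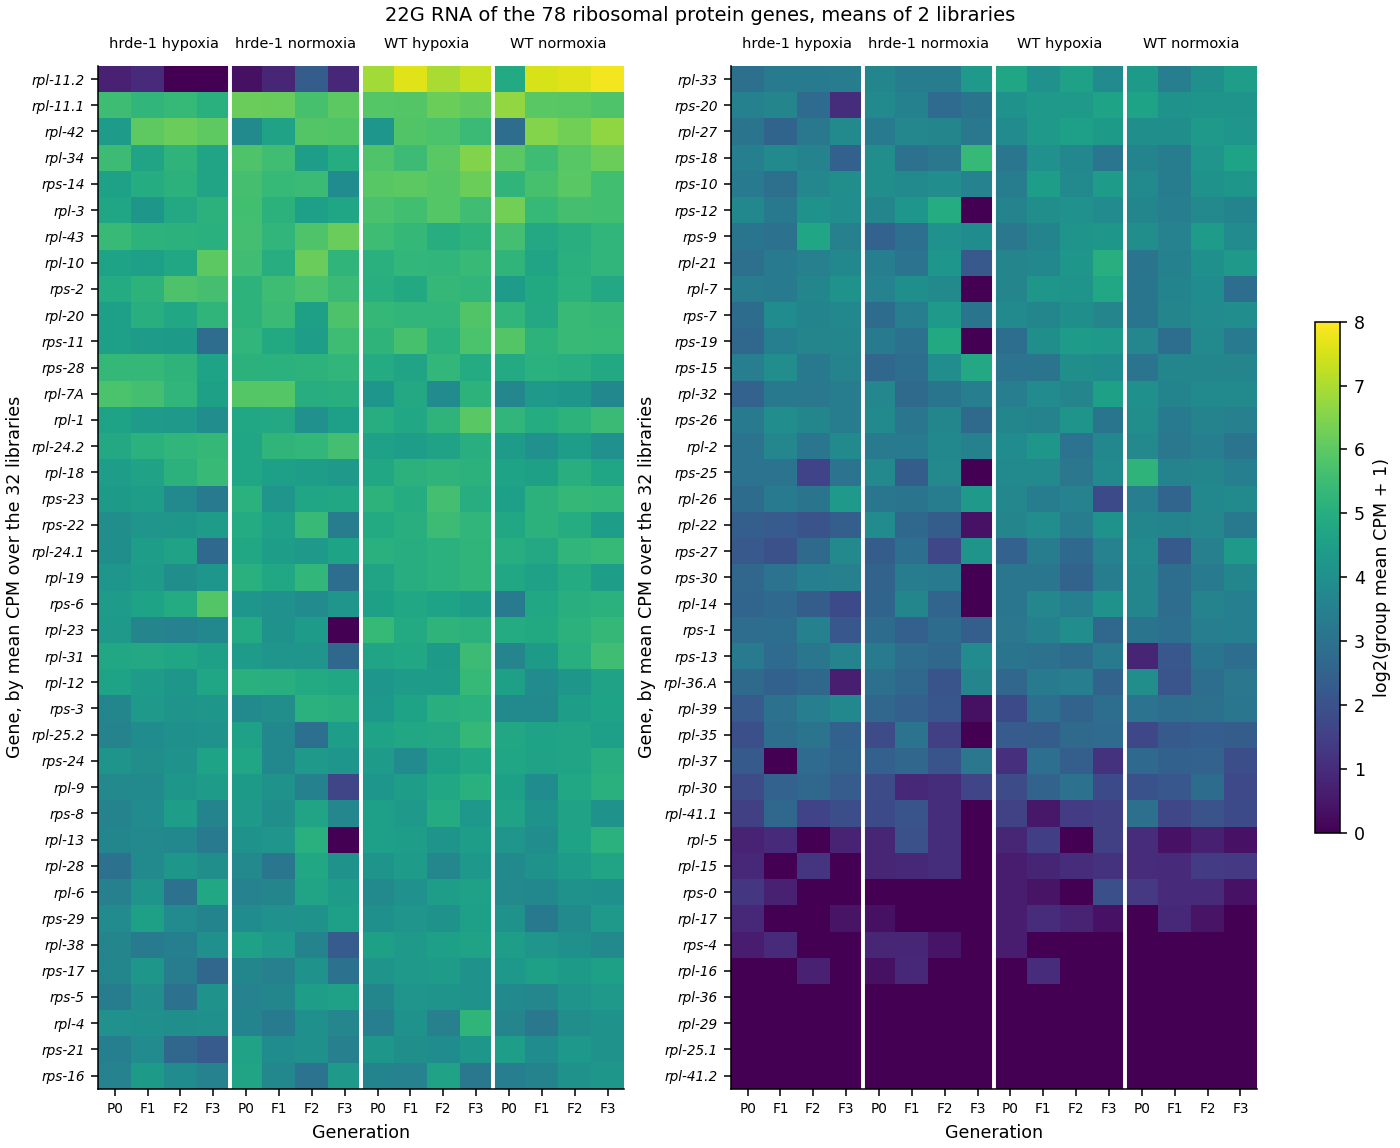
Mean 22G RNA of each of the 78 ribosomal protein genes in the 16 groups (2 libraries each), as log2(group mean CPM + 1), with genes ordered by mean CPM and columns by genotype, oxygen label and generation. The top row, rpl-11.2, is dark in all hrde-1 columns and bright in WT, and 10 of the 68 genes tested are at 0 in the F3 hrde-1 normoxia column.

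The largest difference between genotypes lay in rpl-11.2. This gene (WBGene00004423, chromosome X, 2241738 to 2242618, minus strand, WBcel235) encodes one of the worm's copies of the large-subunit protein RPL11, which joins the large subunit with its smallest rRNA. Its partner rpl-11.1 (WBGene00004422) lies on chromosome V, 3585312 to 3586064. In hrde-1 hypoxia libraries rpl-11.2 had 0.741 and 0.563 CPM at P0, 1.86 and 0 at F1, 0 and 0 at F2 and 0 and 0 at F3. In hrde-1 normoxia libraries it had 0 and 0.540 CPM at P0, 0.787 and 0.851 at F1, 3.60 and 4.62 at F2 and 0.616 and 1.15 at F3. Every hrde-1 library was thus at or near 0, in each generation and under both oxygen labels.

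In WT hypoxia libraries rpl-11.2 had 135 and 99.6 CPM at P0, 199 and 186 at F1, 103 and 147 at F2 and 156 and 164 at F3. In WT normoxia libraries it had 38.4 and 18.7 CPM at P0, 165 and 203 at F1, 173 and 215 at F2 and 206 and 259 at F3. The lowest WT library, a P0 normoxia one, lay above the highest hrde-1 library. The genotypes thus did not overlap in this gene, as held with lower hrde-1 levels for 7.16% of all genes tested under hypoxia and 6.29% under normoxia. Under hypoxia rpl-11.2 averaged 0.395 ± 0.661 CPM in hrde-1 and 149 ± 35.5 CPM in WT (SD, n = 8 libraries each). The log2 fold change was -7.96 ± 0.31 (standard error, edgeR quasi-likelihood test with generation as a term, adjusted p = 6.65e-15), the 8th lowest of 9213 genes tested. Under normoxia it averaged 1.52 ± 1.65 CPM in hrde-1 and 160 ± 85.9 CPM in WT (SD, n = 8 libraries each), a log2 fold change of -6.88 ± 0.34 (edgeR, adjusted p = 8.05e-12), the 17th lowest of 9279. The gene passed in each generation taken alone, under both labels. At F2 and F3 under hypoxia, where both hrde-1 libraries were at 0, it was at least 75.5-fold and at least 122-fold lower in hrde-1, taking 3 counts over the group as the floor.

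rpl-11.1 did not show that loss. It ranged from 21.7 to 51.4 CPM with a median of 43.1 in hrde-1 hypoxia libraries, and from 45.2 to 76.4 with a median of 63.8 in WT hypoxia libraries. Under normoxia it ranged from 42.5 to 80.0 CPM with a median of 62.7 in hrde-1, and from 50.6 to 106 with a median of 61.1 in WT. The hypoxia-labelled difference of -0.67 ± 0.18 on the log2 scale passed (edgeR, adjusted p = 0.00522), with overlapping ranges. Reads that match both copies could be split by the authors' counting in a way not given in the sources used here.

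**Figure D2:**
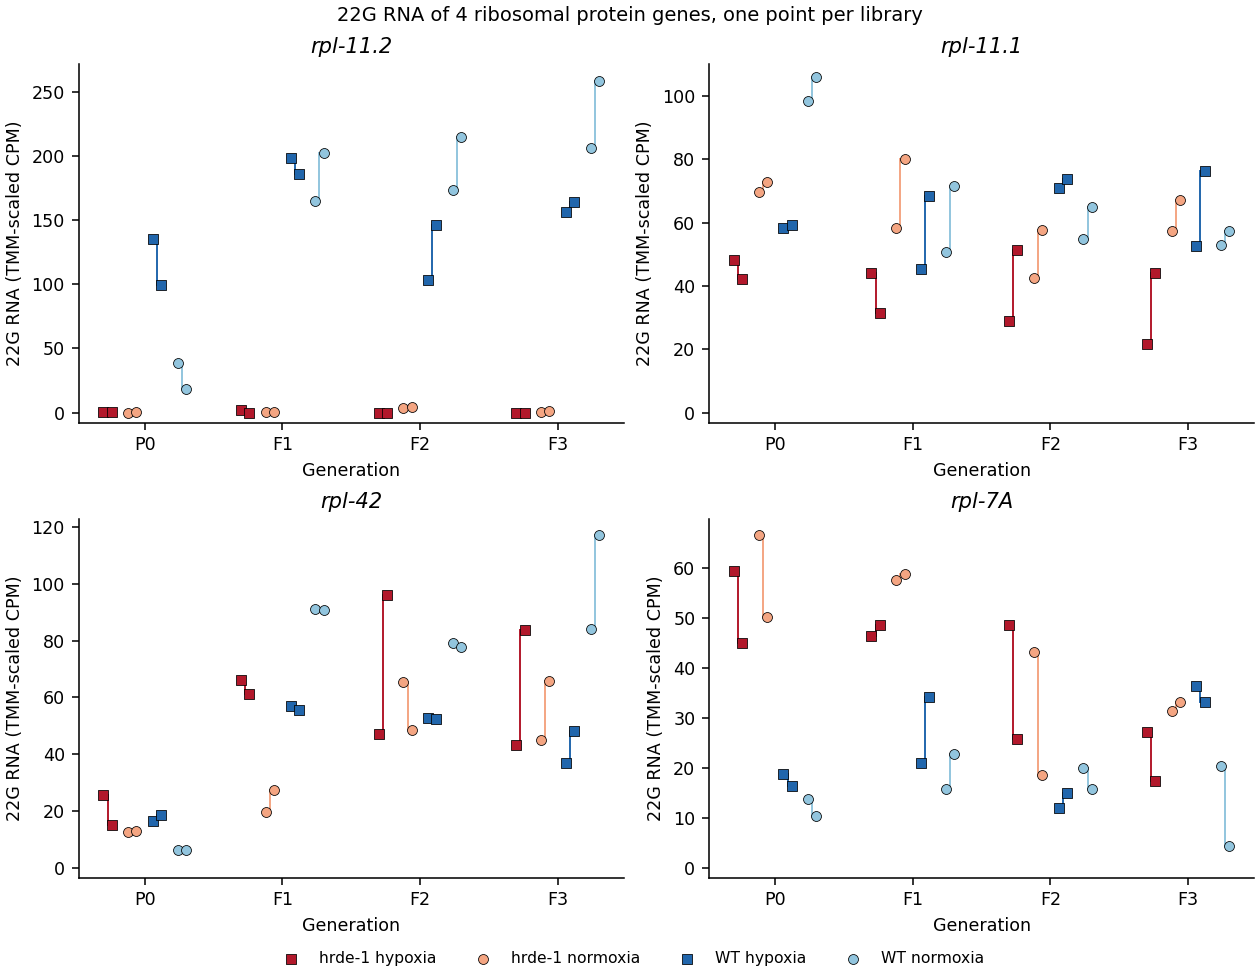
22G RNA (TMM-scaled CPM) of rpl-11.2, rpl-11.1, rpl-42 and rpl-7A in each of the 32 libraries by generation; each point is 1 library, lines join the 2 libraries of a group, and each panel has its own axis. rpl-11.2 reaches at most 4.62 CPM in hrde-1 and at least 18.7 CPM in WT, while rpl-11.1 is present in both genotypes.

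Under the hypoxia label 22 of the 67 ribosomal protein genes tested passed between hrde-1 and WT, 21 lower and 1 higher in hrde-1. Among all genes tested 38.1% passed, 20.1% lower and 18% higher, so the share of ribosomal protein genes that passed (32.8%) was below the background while the share that was lower (31.3%) was above it. Their median log2 fold change was -0.55, against -0.02 over all genes, and 52 of 67 were negative, 31 of them without passing. The large-subunit median was -0.59 and the small-subunit median -0.36. In 7 of the 67 genes (10.4%) every hrde-1 library lay below every WT library, against 7.16% of all genes tested. These were rpl-3, rpl-11.2, rpl-19, rpl-23, rpl-24.1, rps-11 and rps-14.

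Among them, rps-14 encodes a protein of the small subunit's platform. It ranged from 20.0 to 37.1 CPM with a median of 25.5 in hrde-1 hypoxia libraries, and from 54.3 to 89.7 with a median of 60.5 in WT hypoxia libraries. Every hrde-1 library had less than the lowest WT library, and the log2 fold change was -1.19 ± 0.17 (edgeR, adjusted p = 7.99e-06). rpl-23, whose mammalian homolog also binds MDM2, ranged from 7.87 to 19.6 CPM with a median of 12.9 in hrde-1 and from 25.3 to 41.9 with a median of 36.1 in WT. It fell by 1.36 ± 0.21 on the log2 scale (edgeR, adjusted p = 1.94e-05). rpl-3 encodes a protein near the peptidyl transferase centre, where peptide bonds are made. It ranged from 17.1 to 39.1 CPM with a median of 26.4 in hrde-1 and from 43.6 to 61.1 with a median of 49.4 in WT, a log2 fold change of -0.94 ± 0.17 (edgeR, adjusted p = 0.000145).

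rpl-24.1 and rpl-19 encode proteins that bridge the subunits. rpl-24.1 averaged 16.3 ± 7.72 CPM in hrde-1 hypoxia libraries and 33.5 ± 3.57 CPM in WT hypoxia libraries (SD, n = 8 each), a log2 fold change of -1.11 ± 0.26. rpl-19 averaged 17.5 ± 5.31 CPM in hrde-1 and 31.1 ± 4.97 CPM in WT, a log2 fold change of -0.78 ± 0.23. rps-11 ranged from 2.10 to 25.6 CPM with a median of 18.8 in hrde-1 and from 27.4 to 63.8 with a median of 40.5 in WT, a log2 fold change of -1.36 ± 0.30. In these genes the levels of hrde-1 were less than those of WT in all libraries, with the least separation in rpl-19, at most 22.9 CPM in hrde-1 and at least 23.7 in WT. The largest decreases after rpl-11.2 were in rpl-22 (-1.69 ± 0.44) and rps-20 (-1.50 ± 0.45), both low in hrde-1 at means of 3.95 and 7.25 CPM. The others that fell were rpl-1, rpl-14, rpl-20, rpl-25.2, rpl-27, rpl-33, rpl-34, rpl-38, rps-21, rps-22 and rps-23, by 0.55 to 1.32 on the log2 scale. When 1 library was left out in turn, rpl-14 passed in 6 of 16 fits, rpl-25.2 and rps-21 in 8 and rpl-27 in 13, and the other 17 lower genes in all 16.

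Taken by generation, fewer ribosomal protein genes passed: 2 at P0, 1 at F1, 2 at F2 and 9 at F3, against 10.3%, 11%, 11.5% and 21.9% of all genes. rpl-11.2 was among them at each generation. rpl-23 passed at F2 and F3 and was -1.74 ± 0.47 and -1.47 ± 0.46 there. Each single generation has 2 libraries a group, so a gene that does not pass there is not shown to be alike in both genotypes. Without the P0 libraries 14 genes passed. For this and the other fits that left out libraries, the share of all genes is not given here. Such counts cannot tell a change in the family from one over all genes. Scaled to the 4 small RNA classes together, 31 were lower and 0 higher, with a median of -0.91, and the median over all genes moved to -0.37, with 954 genes higher and 2925 lower against 1659 and 1850 with TMM.

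The difference between the labels is, by algebra, the difference between genotypes in the hypoxia response, tested below by generation and over F1 to F3. Over F1 to F3 it passed in 5 of 68 ribosomal protein genes, against 8.61% of all genes. Pooled over P0 to F3 it was not tested. Under the normoxia label fewer genes passed than under the hypoxia label. Of 66 ribosomal protein genes tested, 4 passed, rpl-11.2 lower and 3 higher in hrde-1, against 28% of all genes (16.3% lower, 11.7% higher). The median log2 fold change was -0.42, against -0.18 over all genes, and 48 of 66 were negative. The 1 lower and 3 higher became 3 and 3 with DESeq2 size factors and 1 and 1 with scaling to the 4 small RNA classes. That scaling moved the median to -0.08 and that over all genes to 0.18, with 674 genes higher and 621 lower against 1083 and 1515 with TMM. DESeq2 passed 13 genes in place of 4, and edgeR passed 11 without the F3 libraries, 7 without F3 hrde-1 normoxia replicate 1 and 10 without replicate 2. At P0, F1 and F2 alone 2, 3 and 1 passed, against 10.5%, 13.3% and 12.7% of all genes. With F3 alone 17 passed, 15 of them lower in hrde-1, against 34.7% of all genes (26.5% lower, 8.24% higher). The decreases at F3 rest on the group that stood apart in the number of genes detected.

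The genes higher in hrde-1 under normoxia were rpl-7A, rpl-24.2 and rps-2. rpl-7A (WBGene00004419, chromosome IV, 4389143 to 4390590) encodes a large-subunit protein. It ranged from 18.5 to 66.6 CPM with a median of 46.7 in hrde-1 normoxia libraries, and from 4.36 to 22.7 with a median of 15.7 in WT normoxia libraries. The ranges met only in the F2 hrde-1 library at 18.5 CPM, and the log2 fold change was 1.46 ± 0.32 (edgeR, adjusted p = 0.00162). Under hypoxia rpl-7A ranged from 17.4 to 59.3 CPM with a median of 45.7 in hrde-1 and from 11.9 to 36.4 with a median of 19.8 in WT, and rose by 0.81 ± 0.27 (edgeR, adjusted p = 0.0218). Within P0, F1, F2 and F3 the hypoxia-labelled values were 1.57 ± 0.51, 0.77 ± 0.50, 1.44 ± 0.53 and -0.62 ± 0.51. Only that at P0 passed, and a difference between generations was not tested. The pooled rise of rpl-7A under hypoxia passed in 9 of 16 fits that left out 1 library. It did not pass when scaled to the 4 small RNA classes.

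rpl-24.2 averaged 37.0 ± 17.6 CPM in hrde-1 normoxia libraries and 18.0 ± 3.62 CPM in WT normoxia libraries (SD, n = 8 each), a log2 fold change of 1.01 ± 0.32 (edgeR, adjusted p = 0.0209). rps-2, which encodes a protein at the entry of the mRNA channel, averaged 44.0 ± 8.59 CPM in hrde-1 and 27.2 ± 5.15 CPM in WT, a log2 fold change of 0.67 ± 0.19 (edgeR, adjusted p = 0.0129). Both sets of ranges overlapped, and neither gene passed without the low-count filter, when counts were scaled to the 4 small RNA classes together, or without the F2 libraries. rpl-24.2 also lost its call in 6 of 16 fits that left out 1 library, and rps-2 without F1 WT normoxia replicate 1. Under hypoxia their log2 fold changes were 0.49 and 0.27 and did not pass.

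**Figure D3:**
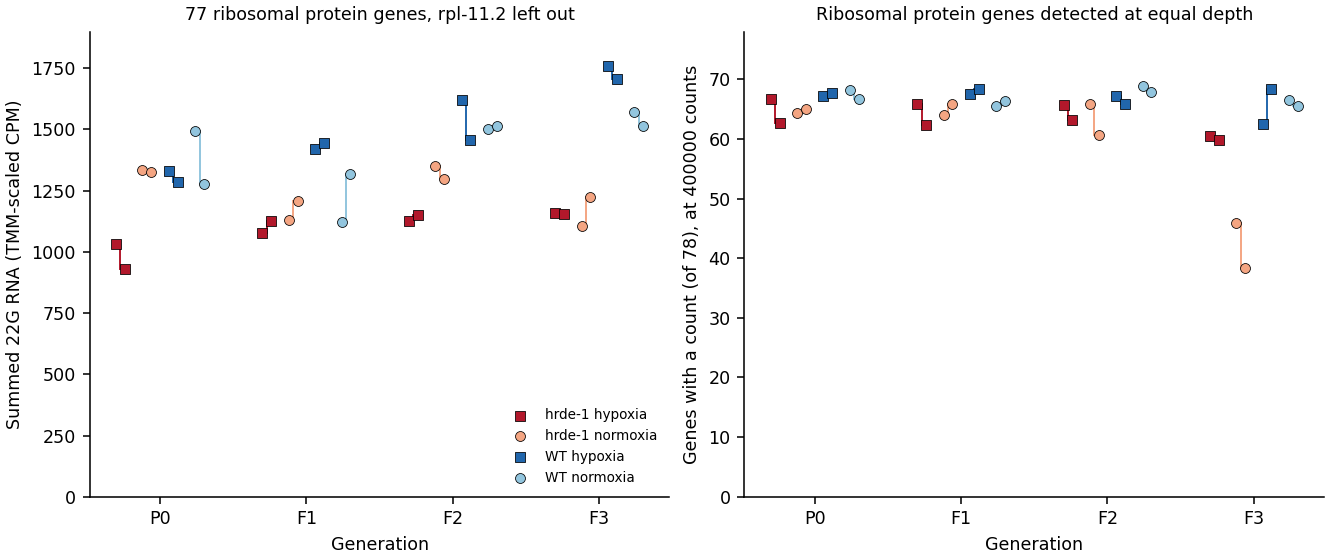
Left, summed 22G RNA (TMM-scaled CPM) of the ribosomal protein genes without rpl-11.2 in each library; right, how many of the 78 genes would have a count at 400000 counts. Points are libraries and lines join the 2 libraries of a group. The hrde-1 hypoxia libraries (931 to 1157) all lie below the WT hypoxia libraries (1284 to 1759), and the F3 hrde-1 normoxia libraries are low at the right.

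Summed over the ribosomal protein genes and leaving out rpl-11.2, 22G RNA was 931 to 1157 CPM (median 1126) in hrde-1 hypoxia libraries and 1284 to 1759 CPM (median 1451) in WT hypoxia libraries. These ranges did not overlap. The sum was 1104 to 1352 CPM (median 1261) in hrde-1 normoxia libraries and 1124 to 1570 CPM (median 1498) in WT normoxia libraries, which overlapped. Scaled to the 4 small RNA classes, the hypoxia sums were 288 to 497 CPM in hrde-1 and 480 to 954 CPM in WT and overlapped slightly.

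Other translation genes, from lists chosen with earlier results known, were set beside these values for hrde-1 against WT under hypoxia. Of 5 ribosomal stalk and associated genes 2 were lower, rack-1 by -0.69 ± 0.13 and the ubiquitin fusion gene ubl-1 by -0.78 ± 0.23 on the log2 scale, and the list's median was -0.40. Of 64 mitochondrial ribosomal protein genes 4 were higher and 5 lower, with a median of 0.03. Of 28 initiation factors 3 were higher and 6 lower, with a median of -0.09. Elongation factors had 1 of 6 higher and 1 lower (median 0.10), aminoacyl-tRNA synthetases 1 of 28 higher and 5 lower (median -0.16), ribosome biogenesis genes 1 of 17 higher (median 0.07) and abundant housekeeping mRNAs 2 of 12 higher (median 0.14). The median of the cytoplasmic ribosomal protein genes, -0.55, was the lowest of these. Under normoxia the medians were -0.29 for the stalk list, -0.01 for mitochondrial ribosomal proteins, 0.11 for initiation factors, -0.05 for elongation factors, -0.11 for the synthetases, 0.17 for biogenesis and 0.28 for housekeeping genes, against -0.42 for the ribosomal protein genes.

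22G RNA over marker genes of tissues was set beside these values, with 38.1% of all genes passing between genotypes under hypoxia (18% higher, 20.1% lower) and 28% under normoxia (11.7% higher, 16.3% lower). The 23 oocyte and maternal germline genes summed to 1894 to 2640 CPM in hrde-1 hypoxia libraries and 1692 to 1991 in WT hypoxia libraries, with 6 of 22 tested higher and 3 lower and 1 gene at 0 throughout. Under normoxia they summed to 1588 to 2450 CPM in hrde-1 and 1532 to 1709 in WT (7 higher, 0 lower). The 62 sperm genes summed to 590 to 1030 CPM in hrde-1 hypoxia libraries and 442 to 928 in WT hypoxia libraries, with 9 of 21 tested higher and 2 lower and 2 genes at 0. Under normoxia the order of their medians was the other way, at 732 CPM in hrde-1 and 917 CPM in WT (3 higher, 3 lower). The 8 neuron genes summed to 156 to 604 CPM in hrde-1 and 332 to 595 in WT under hypoxia (0 of 6 higher, 2 lower). The 6 intestine genes summed to 16.1 to 36.7 CPM in hrde-1 and 15.1 to 44.1 in WT (0 of 5 passed), and the 8 muscle genes to 0 to 1.86 CPM in hrde-1 and 0 to 9 in WT (1 lower of 1 tested). Under normoxia the intestine and neuron lists had 0 of 5 passing each and the muscle list 1 lower of 1. The summed ranges of each list overlapped between genotypes under both labels, and the part of these genes in the results was not tested. These are small RNA counts over the genes and do not measure their mRNA.

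**Figure D4:**
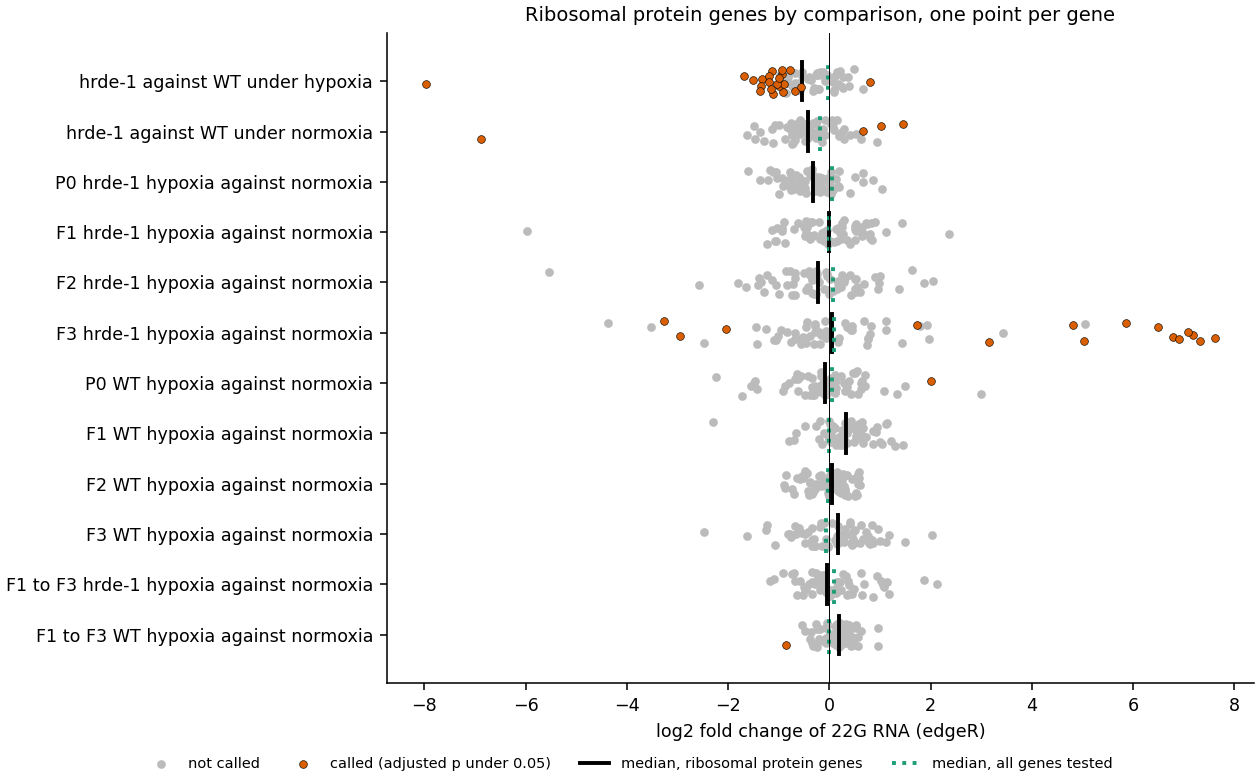
Log2 fold change of 22G RNA for each ribosomal protein gene tested in 12 comparisons; points are genes, orange points passed (adjusted p under 0.05), the black bar is the median of the ribosomal protein genes and the dotted green bar that of all genes tested. The hypoxia-labelled genotype comparison has its black bar at -0.55 and the all-gene bar at -0.02; F3 hrde-1 fold changes beyond 4 mostly belong to genes at 0 in both normoxia libraries, whose fitted size depends on the prior count.

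In the exposed generation of WT, 1 of 68 ribosomal protein genes tested differed between hypoxia and normoxia, against 0.702% of all genes. This was rpl-11.2, at 118 ± 25.4 CPM in P0 hypoxia and 28.5 ± 14 CPM in P0 normoxia libraries (SD, n = 2 each), a log2 fold change of 2.01 ± 0.39 (edgeR over all 16 groups, adjusted p = 0.00694). The P0 normoxia value was the low one: the other WT groups of this gene averaged above it, with no library under 99.6 CPM. The call was lost without P0 WT normoxia replicate 2 and without P0 WT hypoxia replicate 1. Over the 68 genes the median log2 fold change was -0.08, against 0.05 over all genes. When counts were scaled to the 4 small RNA classes, 54 of the genes passed as higher with a median of 2.60 and a median over all genes of 2.70; the low 22G share of the P0 WT normoxia libraries is given above. In hrde-1 at P0 no ribosomal protein gene passed with edgeR or DESeq2, 1 had an unadjusted p under 0.05, and 0.711% of all genes passed. There the median was -0.32, against 0.06 over all genes, with 51 of 68 negative.

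In WT descendants the share of ribosomal protein genes that passed was below the background. It rests on 1 gene and is no result about the family. Over F1 to F3, 1 of 67 genes tested passed (1.49%), against 4.63% of all genes. It was rpl-42 (WBGene00004455, chromosome II, 11092713 to 11094022, WBcel235), which encodes a large-subunit protein near the exit site of tRNA, and changes in it make some yeasts resistant to cycloheximide, an inhibitor of elongation. In WT hypoxia libraries it had 57.0 and 55.5 CPM at F1, 52.6 and 52.4 at F2 and 36.8 and 48.2 at F3. In WT normoxia libraries it had 91.0 and 90.9 CPM at F1, 79.3 and 77.6 at F2 and 84.0 and 117 at F3. Every hypoxia library lay below every normoxia library, which held for 1.49% of the ribosomal protein genes and 2.57% of all genes tested. The means were 50.4 ± 7.33 CPM in hypoxia and 90.0 ± 14.4 CPM in normoxia (SD, n = 6 libraries each), a log2 fold change of -0.85 ± 0.14 (edgeR with generation as a term, adjusted p = 0.00311). It passed under each of 17 alternatives, all of which pooled F1 to F3. The libraries of a label are not independent if the generations came from the same line.

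Within single generations rpl-42 did not pass in WT, with log2 fold changes of -0.69 ± 0.36 at F1, -0.58 ± 0.36 at F2 and -1.25 ± 0.36 at F3. In P0 the gene was low in all groups, at 25.6 and 15.2 CPM in hrde-1 hypoxia, 12.7 and 13 in hrde-1 normoxia, 16.5 and 18.6 in WT hypoxia and 6.15 and 6.22 in WT normoxia libraries. Every P0 WT library of rpl-42 was below every F1 to F3 WT library. The share of all genes with such a separation is not given here, so it cannot be told from a change over all genes. The P0 WT normoxia libraries are among those described above as standing apart, and their part in it was not tested. In hrde-1 at F1 it had 66.2 and 61.3 CPM in hypoxia and 19.7 and 27.2 CPM in normoxia libraries, a log2 fold change of 1.44 ± 0.38 that did not pass (edgeR, adjusted p = 0.119). At F2 it had 47.2 and 96.2 CPM in hrde-1 hypoxia and 65.6 and 48.5 CPM in hrde-1 normoxia, and at F3 43.3 and 83.6 CPM in hypoxia and 44.9 and 65.9 CPM in normoxia, with overlapping groups. Tested directly, the F1 to F3 hypoxia response of rpl-42 was higher in hrde-1 than in WT by 1.49 ± 0.30 on the log2 scale (edgeR over all 16 groups, adjusted p = 0.00438). That call was lost when counts were scaled to the 4 small RNA classes.

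The other comparisons of WT descendants had no ribosomal protein gene that passed with edgeR. At F1 the count was 0 of 68 against 0.168% of all genes, with 0 genes at an unadjusted p under 0.05 and 0 with DESeq2. The median was 0.34, against -0.00 over all genes, and 55 of 68 genes were positive. At F2 the count was 0 against 0% of all genes, with 0 at an unadjusted p under 0.05 and 0 with DESeq2. At F3 it was 0 against 0.346%, with 4 at an unadjusted p under 0.05 and 2 with DESeq2. rpl-7A had 36.4 and 33.2 CPM in F3 WT hypoxia and 20.3 and 4.36 CPM in F3 WT normoxia libraries, a log2 fold change of 1.49 ± 0.52 that did not pass (edgeR, adjusted p = 0.200). Over F1 to F3 the WT median was 0.19, against -0.01 over all genes.

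In hrde-1 descendants F1 and F2 likewise gave 0 of 68 genes with edgeR, against 0.346% and 0% of all genes, with 3 and 4 at an unadjusted p under 0.05 and 1 and 0 with DESeq2. Over F1 to F3 the count was 0 of 63, against 0.176% of all genes, with 2 at an unadjusted p under 0.05 and 0 with DESeq2. In this pooled comparison every hypoxia library lay above every normoxia library for rpl-39, which encodes a protein that lines the exit tunnel. Such separation held for 1.59% of the ribosomal protein genes tested and 0.727% of all genes. rpl-39 had 6.19, 7.84, 11.8, 7.62, 11.9 and 12.8 CPM in the F1, F2 and F3 hypoxia libraries. In the normoxia libraries it had 3.94, 5.11, 2.16, 4.62, 0 and 0.573 CPM. Its lowest values, 0 and 0.573 CPM, came from the F3 hrde-1 normoxia libraries, which stood apart in the number of genes detected. rpl-10, which joins the large subunit late in its maturation, had 24.9 and 28.6 CPM in F2 hypoxia and 46.8 and 94.7 CPM in F2 normoxia libraries, a log2 fold change of -1.36 ± 0.39 that did not pass (edgeR, adjusted p = 0.304).

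**Figure D5:**
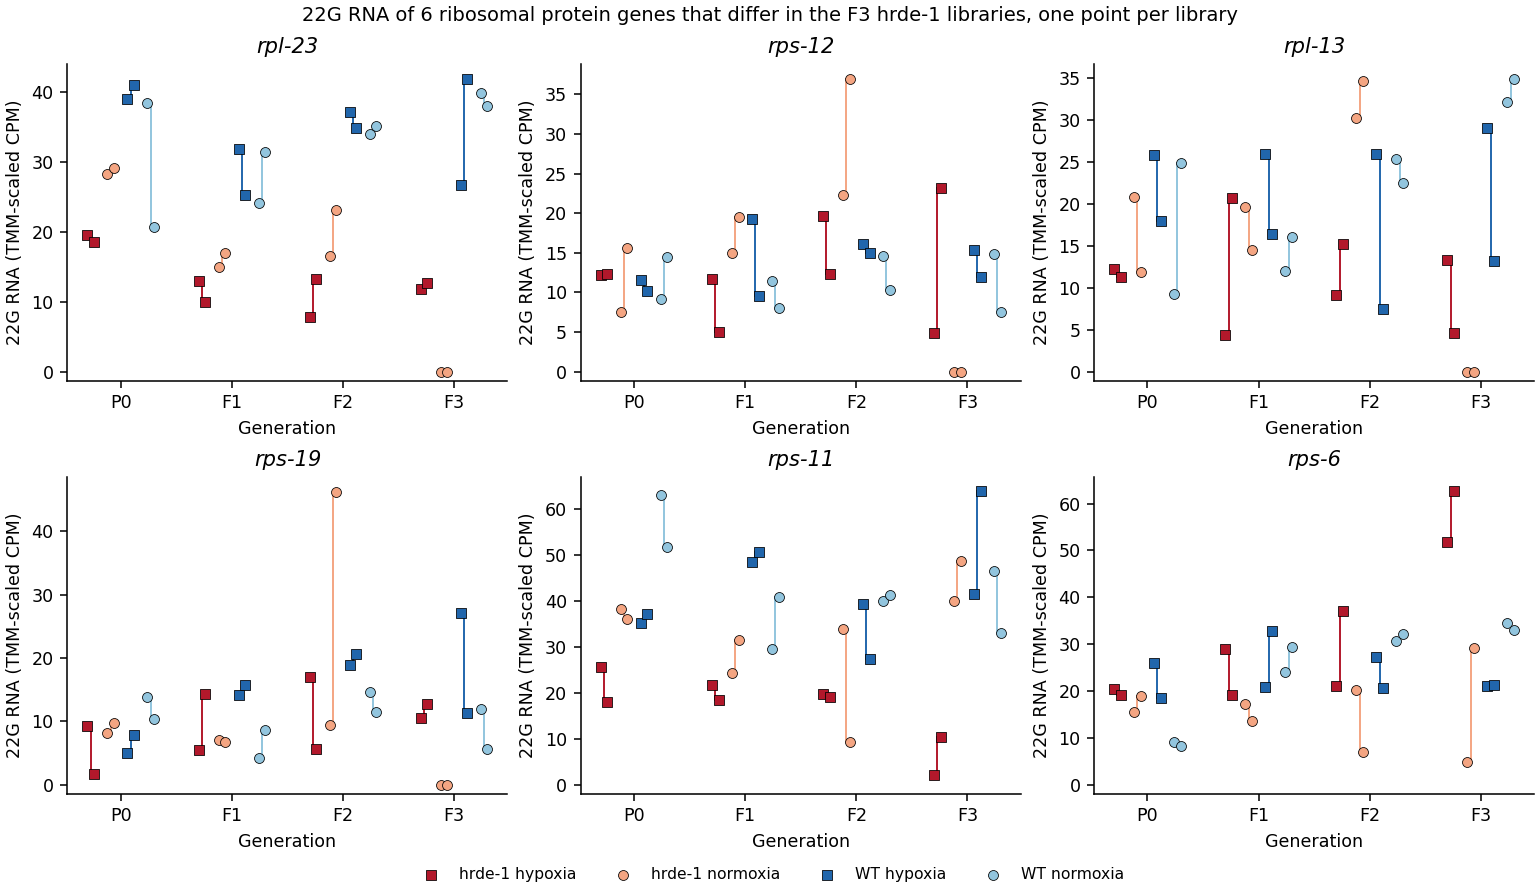
22G RNA (TMM-scaled CPM) of rpl-23, rps-12, rpl-13, rps-19, rps-11 and rps-6 in each of the 32 libraries by generation; points are libraries, lines join the 2 libraries of a group, and each panel has its own axis. The upper-row genes and rps-19 are at 0 in both F3 hrde-1 normoxia libraries and above 0 in all other libraries.

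At F3 in hrde-1, 15 of 68 ribosomal protein genes passed between hypoxia and normoxia, 12 higher and 3 lower, a share of 22.1% against 21.6% of all genes (15.2% higher, 6.33% lower). The share was near the background and is no result about the family. The median was 0.06, also with the genes at 0 taken at their bounds, against 0.09 over all genes. Most of the increases came from genes with no count in the F3 hrde-1 normoxia libraries, which is a limit of 0.890 CPM over the group. In that group 10 of the 68 genes were at 0 in both libraries and 25 in 1 of them, and the replicates differed by a median of 1.44 on the log2 scale, against 0.17 to 1.08 in the other groups.

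rpl-23 had 11.9 and 12.8 CPM in F3 hrde-1 hypoxia and 0 and 0 CPM in F3 hrde-1 normoxia libraries, at least 13.8-fold higher in hypoxia (edgeR, adjusted p = 1.54e-05). rpl-7 had 24.4 and 8.13 CPM in hypoxia and 0 and 0 in normoxia, at least 18.3-fold higher (edgeR, adjusted p = 0.000384). rps-12 had 4.89 and 23.2 CPM in hypoxia and 0 and 0 in normoxia, at least 15.8-fold higher (edgeR, adjusted p = 0.000417). These genes were present in all other hrde-1 libraries of every generation. The bounds cover counting error only, not the spread between the 2 normoxia libraries. In those libraries rpl-3 had 0 and 87 counts and rpl-34 had 97 and 0, so a gene at 0 could lie above the floor. rps-19, rps-30, rpl-13, rps-25, rpl-35 and rpl-14 also passed with 0 in both normoxia libraries, at bounds of 2.74-fold to 13.1-fold. In the 4 fits that left out 1 of these libraries, rpl-14 passed in 0, rpl-35, which was at 0 in 1 hypoxia library, in 1, rps-25 in 3 and the other 3 in all. rps-19 is a gene whose human homolog is mutated in Diamond-Blackfan anaemia, and rps-30 encodes its protein in mammals as a fusion to a ubiquitin-like one.

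Genes with counts in both groups gave fold changes that do not need a bound. rps-6, whose mammalian protein is phosphorylated by S6 kinase, had 51.7 and 62.7 CPM in F3 hrde-1 hypoxia and 4.92 and 29.2 CPM in F3 hrde-1 normoxia libraries, a log2 fold change of 1.73 ± 0.57 (edgeR, adjusted p = 0.0323). It passed in 1 of 4 fits that left out 1 of these libraries. rps-11 had 2.10 and 10.5 CPM in hypoxia and 40.0 and 48.7 CPM in normoxia, -2.94 ± 0.56 (edgeR, adjusted p = 0.000729). rpl-24.1 had 5.59 and 5.81 CPM in hypoxia and 13.5 and 33.8 CPM in normoxia, -2.05 ± 0.49 (edgeR, adjusted p = 0.00514). None of these groups overlapped. rps-18 was also lower, and rpl-39 and rpl-9 also higher, with rps-18 and rpl-9 passing in 2 of 4 such fits. The count moved to 28 without F3 hrde-1 normoxia replicate 1 and to 23 without replicate 2, and with the 4 compared libraries alone it was 0.

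The hypoxia response was then compared between genotypes. At P0, F1 and F2 no ribosomal protein gene passed with edgeR (0 of 68 each, against 0.0593%, 0.0889% and 0% of all genes), with 0, 3 and 3 at an unadjusted p under 0.05 and 0, 1 and 0 with DESeq2. At F3 10 of 68 passed, 9 higher and 1 lower in hrde-1, against 12% of all genes (9.67% higher, 2.28% lower). Over F1 to F3 5 of 68 passed, 4 higher and 1 lower, against 8.61% of all genes (7.25% higher, 1.35% lower). Those were rpl-42, rpl-23, rpl-39, rps-6 and rps-11. Both shares were close to the background, and both comparisons include the F3 hrde-1 normoxia libraries described above, in which rpl-42 had 44.9 and 65.9 CPM. The F3 count was 26 without F3 hrde-1 normoxia replicate 1, 16 without replicate 2 and 6 without F3 WT normoxia replicate 1.

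Comparing F3 with F1 within a line, no gene passed in WT with edgeR (0 of 68 each under hypoxia and normoxia, against 0.128% and 0% of all genes), with 2 and 0 at an unadjusted p under 0.05 and 0 and 0 with DESeq2. In hrde-1 hypoxia 2 of 68 passed, against 3.02% of all genes. rpl-10 had 56.6 and 68.5 CPM at F3 and 23.5 and 20.0 CPM at F1, a log2 fold change of 1.52 ± 0.38 (edgeR, adjusted p = 0.0312). rpl-24.1 had 5.59 and 5.81 CPM at F3 and 21.7 and 20.7 CPM at F1, -1.88 ± 0.49 (edgeR, adjusted p = 0.0372). Leaving out any of the 4 libraries ended both calls. In hrde-1 normoxia 13 of 68 passed, 12 lower and 1 higher at F3, against 17.7% of all genes (1.68% higher, 16% lower). This comparison shares its F3 libraries with the F3 comparison above. rpl-13 had 0 and 0 CPM at F3 and 19.7 and 14.5 CPM at F1, at least 19.2-fold lower if only counting error is allowed for. The gene higher at F3 was rpl-42, with 44.9 and 65.9 CPM at F3 and 19.7 and 27.2 CPM at F1 (1.24 ± 0.38, edgeR, adjusted p = 0.0255). The rise of rpl-42 passed in 1 of 4 fits that left out 1 library and did not pass without the low-count filter or when scaled to the 4 small RNA classes (adjusted p up to 0.224 over 9 alternatives, edgeR or DESeq2). With DESeq2 size factors 10 genes were lower and 3 higher. The count was 31 without F3 hrde-1 normoxia replicate 1, 8 without F1 hrde-1 normoxia replicate 1 and 7 without F1 hrde-1 normoxia replicate 2.

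Of all 78 genes, the largest range between group means on the log2(CPM + 1) scale, among those of at least 5 CPM, was that of rpl-11.2, at 7.87. The next were rpl-23 (5.36), rps-25 (5.19), rpl-13 (5.11), rps-12 (4.94) and rps-19 (4.85), each with its lowest group mean at 0 in F3 hrde-1 normoxia.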

How the data were processed

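Small RNA libraries from total RNA of whole worms, treated with RNA 5' pyrophosphohydrolase to capture triphosphorylated 22G RNA, were sequenced as single-end 85 bp reads, per the labels' protocols. The authors deposited a table of 22G RNA counts per gene, whole numbers in 30 libraries. FastQC, cutadapt 2.5, featureCounts and edgeR are named in the submitters' processing notes. The aligner, build, strand setting and handling of multi-mapped reads are not given in the sources used here. For both F2 WT normoxia libraries the authors deposited estimated counts, fractional in 24.4% and 23.6% of values, which were rounded. The 5 summary entries that name no gene were left out. Gene names came from the WBcel235 annotation (Ensembl release 115), which matched 46919 of 46932 IDs.

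Genes were filtered with filterByExpr (minimum count 10), scaled by TMM and tested over the whole table with edgeR 4.0.16 (quasi-likelihood F test, robust), with Benjamini-Hochberg adjusted p under 0.05 as the threshold. Single-generation comparisons, differences of responses and F3 against F1 used 1 fit of 16 groups. F1 to F3 comparisons and genotype comparisons used fits with generation as a term. Of the 78 genes 68 passed the filter in the 16-group fit, 10 did not and have no test. Standard errors are of log2 fold changes, taken in edgeR fits as the absolute fold change divided by the square root of the F statistic. Where a group is at 0 they depend on the prior count, as the fold changes do. A fold change against a group at 0 is given as a bound at 3 counts over the group, a floor that covers counting error only. Libraries of 438436 to 2578060 counts limit the precision of genes near 1 CPM. DESeq2 1.42.0, other scalings, no filter, a replicate block and leaving out libraries were tried. The fit was tested on simulated data with the same setting of spread for all genes and libraries. That does not cover a group such as F3 hrde-1 normoxia, whose replicates differ more. The members and lists were chosen with earlier results of these data known. Genes named are the 10 highest and 5 lowest by mean CPM, the 6 of widest range, and up to 8 per direction that passed in a comparison or, where none did, the 2 of smallest p. Others were chosen after their values were seen: rps-28, rpl-9, the genes with no count in any library, and the remaining genes that passed under hypoxia.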

Additional observations from a re-analysis of the deposited data

Results flagged for a closer look

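For the ribosomal protein genes below, the difference between the hypoxia responses of hrde-1 and WT passed in its own test (edgeR over all 16 groups). Each value is the hrde-1 response minus the WT response on the log2 scale, fitted, and it depends on the prior count where a group is at 0. At F3 the values were 5.58 ± 1.64 for rpl-7, 7.43 ± 1.61 for rpl-13, 7.37 ± 1.07 for rpl-23, 7.04 ± 1.54 for rps-12, 5.96 ± 1.77 for rps-19, 6.18 ± 1.85 for rps-25 and 7.25 ± 2.24 for rps-30. All 7 genes were at 0 in both F3 hrde-1 normoxia libraries. At F3 rpl-39 had 5.31 ± 1.37, with 0 and 0.573 CPM in those libraries. At F3 rps-6 had 2.40 ± 0.79 and rps-11 had -3.34 ± 0.73, both with counts in every library. Of the 8 fits that left out 1 library, rps-6 passed in 1, rps-30 in 3, rpl-7, rps-19 and rps-25 in 4 each, and the other 5 in all; rps-6 also did not pass with the replicate block.

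Over F1 to F3 the values were 1.49 ± 0.30 for rpl-42, 1.99 ± 0.49 for rpl-23, 2.67 ± 0.73 for rpl-39, 1.47 ± 0.46 for rps-6 and -1.44 ± 0.40 for rps-11. Of these rpl-42 and rpl-23 passed in all 24 fits that left out 1 library, rpl-39 in 15, rps-11 in 12 and rps-6 in 3. The low number of genes detected in the F3 hrde-1 normoxia libraries moves with the F3 values, and its part in them was not tested.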

How the results depend on the processing

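The counts of ribosomal protein genes that passed were recomputed under other settings. Shares of all genes are not set beside them here, so they show how the calls move and are no result about the family. The loss of rpl-11.2 in hrde-1 passed in all 28 alternatives under either label, and the lower rpl-42 of WT hypoxia descendants in all 17. Scaling to the 4 small RNA classes gave 54 genes at P0 WT, 29 for the P0 response difference, 5 for F3, 0 for F1 to F3, 0 for F3 against F1 in hrde-1 hypoxia and 2 for the genotype under normoxia, and 3 of the 6 genes of widest range were shared. Fitting only the compared libraries gave 3 genes at P0 WT, 1 at F1 WT, 1 at P0 hrde-1, 1 at F1 hrde-1 and 0 at F3 hrde-1. DESeq2 gave 2 at F3 WT, 1 at F1 hrde-1, 1 for the F1 response difference and 13 for the genotype under normoxia, and DESeq2 size factors gave 1 for F3 against F1 in hrde-1 hypoxia. With no filter the counts were 1 for the F1 to F3 response difference, 0 for F3 against F1 in hrde-1 hypoxia and 2 for F1 to F3 in WT. Settings added after seeing the data left out generations: without F3, 1 gene passed in each of P0, F1 and F2 hrde-1 and in the P0 and F1 response differences, and 11 for the genotype under normoxia; without P0, 14 passed for the genotype under hypoxia. Within P0, F1, F2 and F3 the genotype counts were 2, 1, 2 and 9 under hypoxia, and 2, 3, 1 and 17 under normoxia. The log2 fold change of rpl-7A within F3 under hypoxia was -0.62 and did not pass. Leaving out 1 library gave ranges of 0 to 1 at P0 WT, 0 to 2 at F3 WT, 0 to 1 at F2 hrde-1, 13 to 28 at F3 hrde-1, 6 to 26 for the F3 and 2 to 11 for the F1 to F3 response difference, 0 to 1 for F3 against F1 in WT hypoxia, 7 to 31 in hrde-1 normoxia and 0 to 2 in hrde-1 hypoxia, 1 to 2 over F1 to F3 in WT, 3 to 10 for the genotype under normoxia and 17 to 26 under hypoxia. The cause of these changes was not tested. Same-numbered libraries did not deviate together (r of -0.01 to 0.03), so the numbers were not taken as pairs; with the replicate block the F3 response difference passed in 9 genes and the genotype under hypoxia in 22. Groups of 2 libraries and 10 genes below the filter limit what can be detected.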
